A study of Homo sapiens with 16 samples.

Results

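The genes described here are 10 noncoding host genes of small nucleolar RNAs (snoRNAs), SNHG1, SNHG5, SNHG6, SNHG7, SNHG8, SNHG12, SNHG15, SNHG16, GAS5 and ZFAS1. They were chosen by name, and each matched 1 of the 58051 Ensembl gene rows in the count table. All 10 passed the filter on low counts in all 4 groups, as did 20357 genes of the table.

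RNA-seq was performed in LNCaP cells, a line established from a lymph node metastasis of prostate cancer, at passage 20. The siCtrl and siXBP1 groups were transfected for 2 days with Allstar control siRNA or with siRNA against XBP1. The Vehicle and MKC8866 groups received DMSO or 10 µM MKC8866, an inhibitor of the RNase activity of IRE1α, for 24 h. Thapsigargin, which blocks the calcium pump of the endoplasmic reticulum (ER), was then given at 30 nM for 3 h to the cells of all 16 libraries, 4 in each group. No library was made without thapsigargin, so its own effect on these genes was not measured. Total counts were 31920910 to 34509488 per library in siCtrl, 28713607 to 32600081 in siXBP1, 28923919 to 34188950 in Vehicle and 29203993 to 34507788 in MKC8866.

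snoRNAs guide the chemical modification of ribosomal RNA, box C/D snoRNAs its ribose methylation and box H/ACA snoRNAs its pseudouridylation. In animals most of them are cut out of the introns of a host gene. The host genes described here give rise to spliced RNAs without a long open reading frame. Many of these RNAs begin with a tract of pyrimidines, as the mRNAs of ribosomal proteins do, and are bound by ribosomes, stop early and are degraded by nonsense-mediated decay. They are therefore known to accumulate when translation is blocked or when cells stop growing, and GAS5 was named for its rise in growth arrest. ER stress lowers translation initiation through the kinase PERK, while IRE1α splices the mRNA of the transcription factor XBP1. The comparisons below ask whether the host RNAs differed between stressed cells with and without XBP1, or with and without IRE1α RNase activity.

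The siRNA was checked by its target. XBP1 was at 385, 421, 366 and 359 CPM (counts scaled to a common library size after TMM normalization) in the siCtrl libraries and at 51.2, 54.2, 54.1 and 53.2 CPM in the siXBP1 libraries. The 4 siXBP1 libraries were thus all far below the siCtrl libraries, with a log2 fold change of −2.85 (standard error (SE) 0.05, edgeR adjusted p = 2.95e-20). The XBP1 targets FICD and DNAJB9, which encode regulators of the ER chaperone BiP, were also lower in MKC8866 than in Vehicle cells (log2 fold change −2.06 and −1.87, edgeR adjusted p = 6.61e-19 and 9.76e-17). Total XBP1 RNA was 503 ± 25.3 CPM (SD, n = 4) in Vehicle and 578 ± 34.0 CPM in MKC8866 cells.

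Markers of luminal prostate cells were present in every group, with FOLH1 at 1077 CPM in siCtrl. KLK3 was at 655 ± 19.8 CPM in siCtrl, 362 ± 13.6 in siXBP1, 652 ± 34.2 in Vehicle and 898 ± 40.3 in MKC8866 (SD, n = 4). After knockdown TMPRSS2 (log2 fold change −0.89), KLK3 (−0.86) and KLK2 (−0.78) fell, with edgeR adjusted p of 4.61e-14, 1.09e-13 and 3.43e-12, and FOLH1 and HOXB13 were not called. With MKC8866 KLK3 rose (0.46, edgeR adjusted p = 2.76e-08). All 6 luminal markers examined were above 0 with MKC8866, and KLK3 was the 1 called. In a fit that blocked on replicate number 4 of the 6 were called higher, where 6% of all genes were. The part of these shifts in the values below was not tested. Of 8 markers of other cell types, PTPRC, CD3E, PECAM1, COL1A2 and KRT5 had at most 3 counts in any library and CHGA at most 9. COL1A1 and ACTA2 were detected, ACTA2 being the most abundant of the list. After XBP1 knockdown ACTA2 had a log2 fold change of −0.24 (edgeR adjusted p = 0.00121) and COL1A1 one of 0.16 (edgeR adjusted p = 0.0763). With MKC8866 ACTA2 was at 0.10 (edgeR adjusted p = 0.4) and COL1A1 at −0.24 (edgeR adjusted p = 0.0799, and 0.000157 in a fit that blocked on replicate number). In the test of the difference between the responses both were called, ACTA2 at −0.33 (edgeR adjusted p = 0.00238) and COL1A1 at 0.40 (edgeR adjusted p = 0.00856). The 8 markers summed to 107 ± 4.23 CPM in siCtrl, 98.9 ± 5.04 in siXBP1, 104 ± 5.26 in Vehicle and 103 ± 8.75 in MKC8866 (SD, n = 4), and their part in the values below was not tested. In bulk RNA, fewer cells that express a gene and less RNA per cell cannot be told apart.

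Coordinates are those of the count table on hg38. The hosts of box C/D snoRNAs are SNHG1 (ENSG00000255717, chr11:62851988-62855914, minus strand), SNHG5 (ENSG00000203875, chr6:85660950-85678736, minus strand), SNHG6 (ENSG00000245910, minus strand), SNHG16 (ENSG00000163597, chr17:76557766-76565348, plus strand), GAS5 (ENSG00000234741, chr1:173863900-173868882, minus strand) and ZFAS1 (ENSG00000177410, chr20:49278178-49295738, plus strand). The hosts of box H/ACA snoRNAs are SNHG7 (ENSG00000233016, chr9:136721366-136728184, minus strand), SNHG8 (ENSG00000269893, chr4:118278709-118279823, plus strand) and SNHG15 (ENSG00000232956, chr7:44983023-44986961, minus strand). SNHG12 (ENSG00000197989, chr1:28578538-28582983, minus strand) hosts both kinds. The reference annotation classes all 10 as long noncoding RNA.

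The exon models of several of these genes are broad. Exons of the count table covered 95.6% of the span of SNHG1 and 92.6% of that of SNHG15, against 12.8% for ZFAS1 and 15.7% for SNHG5, the others lying between 26.4% and 82.8%. Where the introns from which snoRNAs are cut lie within counted exons, a gene's count therefore mixes spliced RNA with RNA that keeps them.

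The snoRNAs themselves were hardly counted. Of 26 snoRNA rows inside the hosts, 21 lie wholly within host exons, and all 21 had 0 counts over the 16 libraries. Among the 5 other rows, SNORD99 in SNHG12 had 94 counts over the 16 libraries, SNORD12B and SNORD12C in ZFAS1 had 162 and 15, SNORD1B in SNHG16 had 18, and SNORD30 in SNHG1 had 0. Of all 991 snoRNA rows of the count table, 664 had 0 counts. Fragments that overlap 2 genes were not counted, so a fragment from a snoRNA inside host exons could be assigned to neither row. No snoRNA row lies within GAS5 in the table.

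Several hosts overlap genes on the other strand, and the counting made no use of strand. SNHG6 shares 29.3% of its exon bases with MCMDC2, SNHG7 25.2% with DIPK1B, and ZFAS1 11.1% with ZNFX1, the gene to which it was named as antisense. SNHG12 shares 0.237% with TRNAU1AP and GAS5 1.16% with GAS5-AS1. Fragments on shared bases were lost to both rows, and outside them reads of a host and of an antisense partner cannot be told apart. With snoRNA rows included, shared bases came to 46.9% of the exon bases of ZFAS1, 36.4% for SNHG6, 31.4% for SNHG7 and at most 15.3% for the 7 other genes.

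The start regions are shown because a pyrimidine tract at the start is a known trait of these genes. RefSeq promoter windows (GRCh38.p14) were available for 8 of the 10 genes, all but SNHG6 and SNHG15. The sequences below run 5′ to 3′ on the gene's strand from 50 bases before the RefSeq start through the first 50 bases from it. Capitals mark runs of at least 7 C or T bases and the letters TATAA.
SNHG12 (chr1:28581824-28581923, minus strand): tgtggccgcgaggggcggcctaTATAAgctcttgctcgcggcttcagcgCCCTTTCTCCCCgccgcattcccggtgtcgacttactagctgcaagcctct
SNHG7 (chr9:136728135-136728234, minus strand): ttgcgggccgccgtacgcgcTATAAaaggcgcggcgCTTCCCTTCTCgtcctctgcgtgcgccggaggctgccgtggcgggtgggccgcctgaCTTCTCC
SNHG16 (chr17:76557714-76557813, plus strand): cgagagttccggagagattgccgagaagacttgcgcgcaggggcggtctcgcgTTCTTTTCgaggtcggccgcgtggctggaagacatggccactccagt
ZFAS1 (chr20:49278592-49278691, plus strand): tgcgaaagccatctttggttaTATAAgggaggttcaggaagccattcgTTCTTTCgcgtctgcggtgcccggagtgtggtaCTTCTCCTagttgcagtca
GAS5 (chr1:173868996-173869095, minus strand): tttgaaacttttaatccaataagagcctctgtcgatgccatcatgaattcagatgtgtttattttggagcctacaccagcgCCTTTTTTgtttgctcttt

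SNHG12 and GAS5 are the genes whose RNA was called higher after XBP1 knockdown, and SNHG16 differed most between the control groups. SNHG7 and ZFAS1, like SNHG12, show a tract with a TATAA in front of it. In SNHG7 this run of 11 pyrimidines ends before the RefSeq start. In SNHG12 a run of 12 pyrimidines lies across the RefSeq start and TATAA begins 28 bases before it. The RefSeq start of GAS5 lies 163 bases upstream of the 5′ end of GAS5 in the count table, so its window does not cover that end. Relative to the 5′ end in the count table, the RefSeq starts of SNHG12 and ZFAS1 lie at −1110 and −464, counting upstream as positive, and so inside the gene.

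On the gene's strand, 5 of the 8 windows (SNHG1, SNHG7, SNHG12, SNHG16 and ZFAS1) had a run of at least 7 C or T bases within 25 bases of the RefSeq start, as did 30.1% of 35116 RefSeq promoters. TATAA began 40 to 20 bases before the start in 5 of the 8 windows (SNHG5, SNHG7, SNHG8, SNHG12 and ZFAS1) and in 3.91% of all promoters. Over the full windows of 300 bases, the letters were in the same 5 and in 14.8% of all promoters. Searched on both strands of the full windows, CCACG was in 5 of 8 (38.1% of all promoters), ACGTG in 2 of 8 (21.4%) and CACGTG, which contains ACGTG, in SNHG7 alone (7.26%). These matches describe the letters and were not tested as sites.

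Per kilobase of exon, SNHG8 had the highest level of the 10 genes in all 4 groups and SNHG7 the lowest. In siCtrl cells SNHG8 was at 73.9 ± 1.90 CPM per kb (SD, n = 4), SNHG1 at 44.3 ± 3.85 and GAS5 at 19.4 ± 0.728. SNHG6 followed at 17.03 ± 1.49, SNHG15 at 16.4 ± 1.05, ZFAS1 at 12.3 ± 0.471, SNHG5 at 12.2 ± 0.717 and SNHG16 at 11.8 ± 0.196, and SNHG12 and SNHG7 were lowest at 5.98 ± 0.608 and 5.02 ± 0.443. The first 3 ranks were the same in all groups, and SNHG8, SNHG1 and the rest did not overlap in any group.

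Further down, neighbours in the order often overlapped. In siCtrl the libraries of GAS5 and SNHG6, SNHG6 and SNHG15, ZFAS1 and SNHG5, SNHG5 and SNHG16, and SNHG12 and SNHG7 overlapped in CPM per kb. In the other groups SNHG12 stood above SNHG7 without overlap, and SNHG6 overlapped SNHG15 in each of them. SNHG16 stood below SNHG5 and ZFAS1 in all groups, but its libraries overlapped those of SNHG5 in siCtrl and siXBP1 and were below those of both genes in Vehicle and MKC8866. SNHG15 ranked above SNHG6 in the inhibitor experiment and below it in the knockdown experiment.

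**Figure D1:**
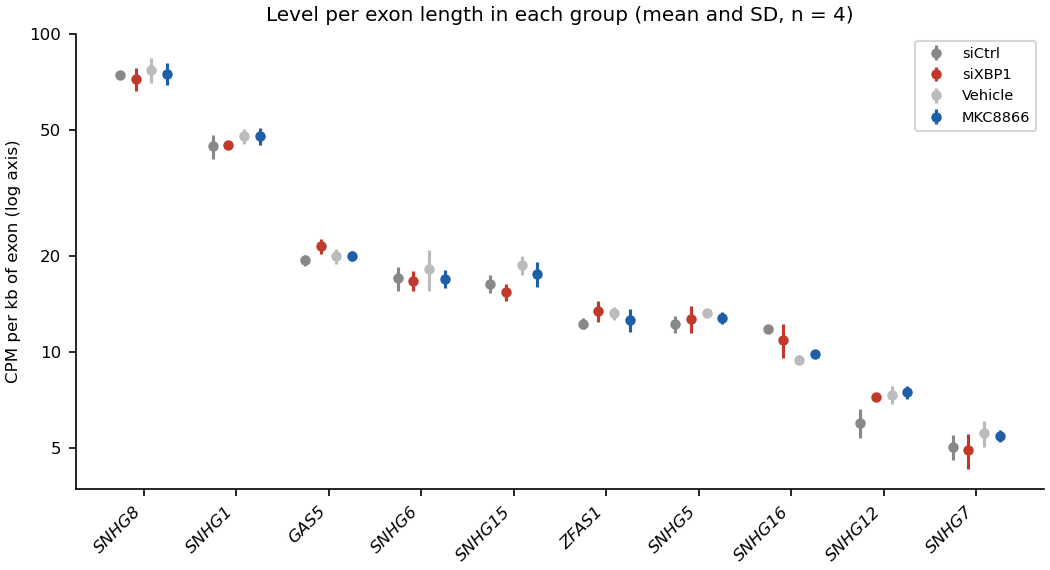
Mean level per kilobase of exon (CPM per kb, log axis) of the 10 host genes in siCtrl, siXBP1, Vehicle and MKC8866 cells, with bars for the SD of 4 libraries. SNHG8 and SNHG1 stand apart at the top in every group, and the group means of each gene lie close together compared with the differences between genes.

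Depth was ample for each gene. The lowest count of any of the 10 in a library was 557 (SNHG7) and the highest 5923 (SNHG1). The coefficient of variation over the 4 libraries of a group ran from 1.66% (SNHG16 in siCtrl) to 14.8% (SNHG6 in Vehicle), so the spread between libraries rather than counting set the precision for the more variable genes.

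**Figure D2:**
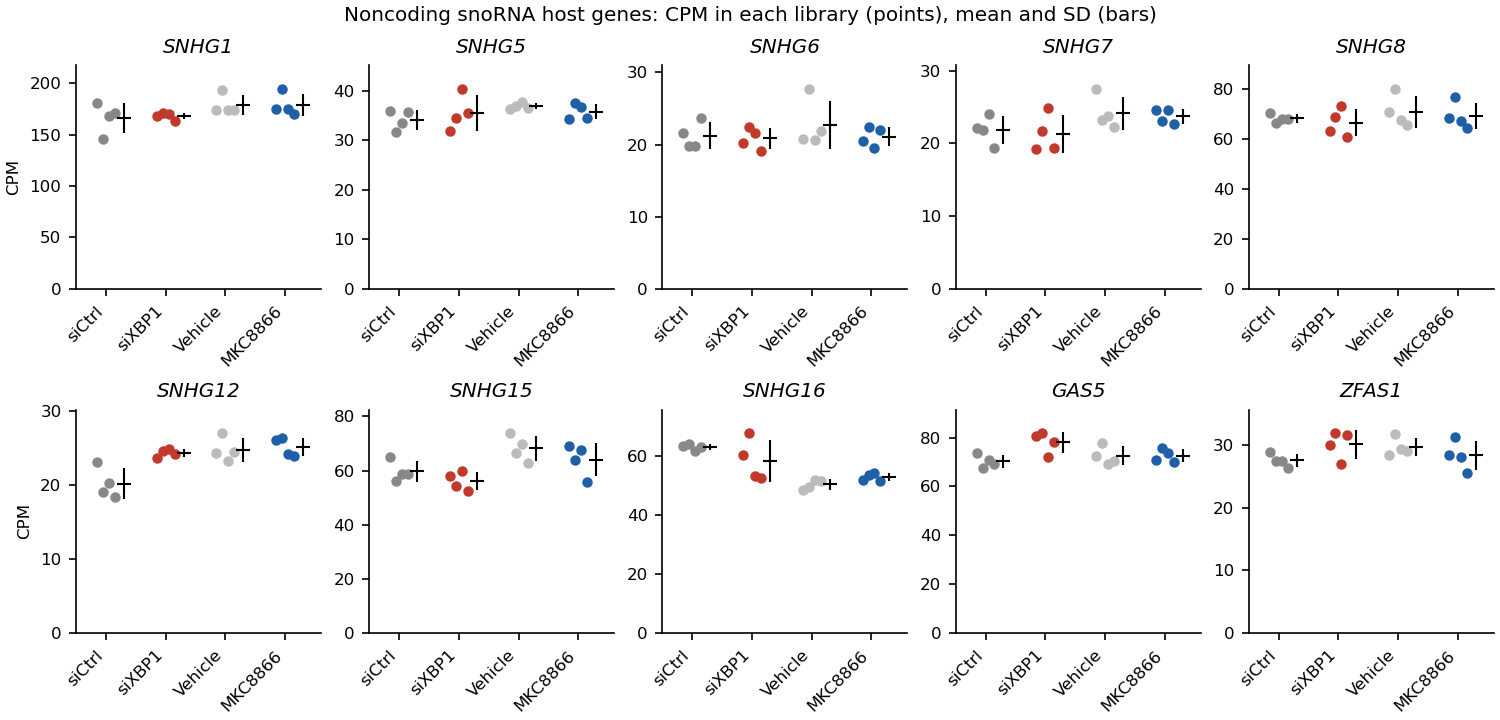
CPM of each host gene in each of the 16 libraries (points, 4 per group), with the mean and SD beside them (black); each panel has its own axis from 0. SNHG12 is lowest in siCtrl, SNHG16 is higher in siCtrl than in Vehicle, and GAS5 is highest in siXBP1, while the other genes show no group that stands clear of the rest in both experiments.

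After XBP1 knockdown, 2 of the 10 host genes were called, both higher, SNHG12 by 1.21-fold and GAS5 by 1.11-fold. Calls were made at a p under 0.05 after Benjamini-Hochberg adjustment over every gene tested, and 34.8% of 21021 genes were called in this comparison, 18.2% lower and 16.5% higher. The share of the host genes called was thus below that of all genes. Their median log2 fold change was −0.01 against 0.00 for all genes, with 5 above 0 and 5 below. Values this near 0 depended on the scaling: over 7 other settings SNHG6 ran from −0.03 to 0.01 and SNHG7 from −0.04 to 0.00.

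SNHG12, host of the box H/ACA RNAs SNORA16A, SNORA44 and SNORA61 and of SNORD99, was at 23.1, 19.1, 20.2 and 18.4 CPM in siCtrl and at 23.6, 24.7, 24.9 and 24.2 CPM in siXBP1. All 4 siXBP1 libraries were above all 4 siCtrl libraries, though siCtrl replicate 1 came close. SNHG12 was the only one of the 10 whose groups did not overlap in this comparison, where 32.8% of all tested genes had groups without overlap. Its log2 fold change was 0.27 (95% interval 0.13 to 0.41, edgeR adjusted p = 0.00268). The call held without each library in turn, at 0.24 to 0.34.

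GAS5, a host of many box C/D snoRNAs whose spliced RNA is also known to bind the glucocorticoid receptor, was at 73.8, 67.5, 70.9 and 69.3 CPM in siCtrl and at 80.6, 81.7, 71.9 and 78.0 CPM in siXBP1. The groups overlapped, since siXBP1 replicate 3 lay within the siCtrl range. The log2 fold change was 0.15 (95% interval 0.05 to 0.25, edgeR adjusted p = 0.0166). Without siXBP1 replicate 2 it was 0.13 and no longer called (edgeR adjusted p = 0.056).

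ZFAS1, host of SNORD12, SNORD12B and SNORD12C, was at 28.9, 27.5, 27.4 and 26.3 CPM in siCtrl and at 30.0, 31.8, 26.9 and 31.6 CPM in siXBP1. Replicate 3 was again the siXBP1 library within the range of siCtrl. The log2 fold change was 0.13 (95% interval 0.01 to 0.25) and did not pass the threshold (edgeR adjusted p = 0.101). It did so without siXBP1 replicate 3 (0.18, edgeR adjusted p = 0.0155) and when libraries were scaled to total counts alone (0.17, edgeR adjusted p = 0.033).

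SNHG16, host of SNORD1A, SNORD1B and SNORD1C, was at 63.7, 64.3, 61.8 and 63.3 CPM in siCtrl and at 60.4, 67.8, 53.2 and 52.7 CPM in siXBP1. The siCtrl libraries were tight and the siXBP1 libraries spread to both sides of them, with replicate 2 above and the others below. The log2 fold change was −0.11 (95% interval −0.24 to 0.01, edgeR adjusted p = 0.172), and without siXBP1 replicate 2 it was −0.18 and called (edgeR adjusted p = 0.0138).

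The 6 other host genes were not called, and their intervals bound the change. SNHG1 had a log2 fold change of 0.02 (95% interval −0.09 to 0.12) and SNHG8 one of −0.04 (−0.15 to 0.07). The intervals of SNHG5 (−0.08 to 0.19), SNHG6 (−0.17 to 0.12), SNHG7 (−0.20 to 0.13) and SNHG15 (−0.20 to 0.02) likewise covered 0. None of the 10 intervals reached a log2 fold change below −0.24 or above 0.41.

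**Figure D3:**
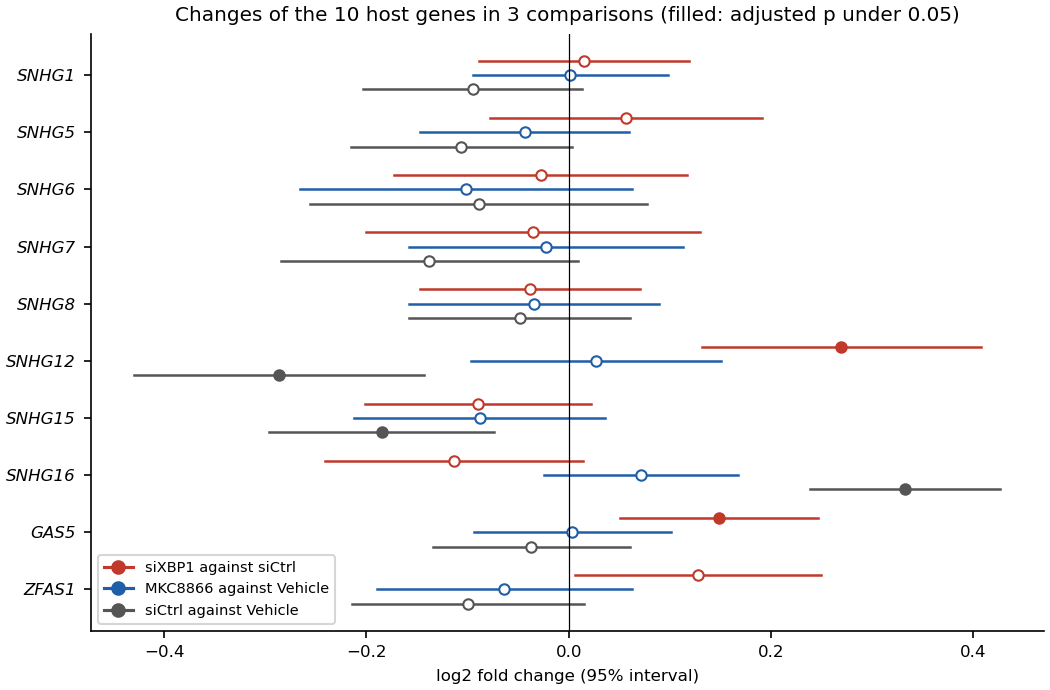
Log2 fold change of the 10 host genes (points) with 95% intervals (lines) for siXBP1 against siCtrl, MKC8866 against Vehicle and siCtrl against Vehicle; filled points have an adjusted p under 0.05. After knockdown SNHG12 and GAS5 are filled, none is filled with MKC8866, and SNHG12, SNHG15 and SNHG16 are filled between the controls; siCtrl is shared by the first and last of these comparisons.

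With MKC8866, 0 of the 10 host genes were called by edgeR, where 4.47% of 21045 genes were called, and 0 reached an unadjusted p under 0.05. DESeq2 also called 0. Deviations from the group mean in MKC8866 and Vehicle libraries with the same replicate number correlated at r of 0.102 to 0.379. Pairs with different numbers had r of −0.252 to 0.159, which overlaps that range. In a fit that blocked on replicate number 13% of all genes were called, but still 0 of the 10. The smallest adjusted p was then that of SNHG15 (0.0696, edgeR).

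The host genes differed little between Vehicle and MKC8866 cells. GAS5 was at 72.4, 77.9, 69.3 and 70.6 CPM in Vehicle and at 70.9, 75.7, 73.7 and 70.2 CPM in MKC8866, a log2 fold change of 0.00 (95% interval −0.09 to 0.10). SNHG12 was at 24.4, 27.0, 23.3 and 24.4 CPM in Vehicle and at 26.1, 26.4, 24.3 and 24.0 CPM in MKC8866, with a log2 fold change of 0.03 (95% interval −0.10 to 0.15). In both genes the ranges of the 2 groups lay across each other.

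The same held for the other 8 genes. SNHG1 was at 0.00 (95% interval −0.09 to 0.10), SNHG16 had the highest log2 fold change, 0.07 (−0.02 to 0.17), and SNHG6 the lowest, −0.10 (−0.27 to 0.06). Over the 10 genes the median was −0.03, against 0.00 for all genes, with 6 below 0 and 4 above. No interval reached below −0.27 or above 0.17, and 0 of the 10 genes had groups that did not overlap, against 9.28% of all tested genes.

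Whether the responses to knockdown and inhibitor differed was tested as an interaction over 16 libraries, in which 23.3% of 20357 genes were called. Of the host genes 1 was called, SNHG12, whose log2 difference between the responses was 0.24 (95% interval 0.06 to 0.43, edgeR adjusted p = 0.0481). This call stood at the threshold. It was kept without siCtrl replicate 1, Vehicle replicate 3, MKC8866 replicate 1 or MKC8866 replicate 2 and lost without any of the 12 other libraries (log2 difference 0.20 to 0.32 over the 16, highest edgeR adjusted p = 0.118).

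GAS5 (0.15, edgeR adjusted p = 0.115), ZFAS1 (0.19, edgeR adjusted p = 0.111) and SNHG16 (−0.18, edgeR adjusted p = 0.109) did not pass. Blocking on replicate numbers within each experiment, SNHG16 did (−0.19, edgeR adjusted p = 0.04), and SNHG12 remained called. Without siXBP1 replicate 2, SNHG16 was called (−0.26, edgeR adjusted p = 0.00648). Without siXBP1 replicate 3, GAS5 (0.18, edgeR adjusted p = 0.0412) and ZFAS1 (0.24, edgeR adjusted p = 0.0367) were called, and ZFAS1 was also called without MKC8866 replicate 2 (0.24, edgeR adjusted p = 0.0354). Over all 16 libraries the values of GAS5 after knockdown and with MKC8866 were not shown to differ. The 2 experiments also differ in transfection, solvent and time, which the interaction cannot separate from the kind of inhibition.

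The controls were compared because all 4 groups bear on the level of these RNAs. Between siCtrl and Vehicle, 3 of the 10 host genes were called, where 14% of 21092 genes were called. SNHG16 was 1.26-fold higher in siCtrl, and SNHG12 and SNHG15 were lower. The groups did not overlap for 3 of the 10 (SNHG16, SNHG12 and SNHG5), against 17.2% of all tested genes.

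SNHG16 was at 48.5, 49.5, 52.1 and 51.8 CPM in Vehicle, all below the 4 siCtrl libraries given above. Its log2 fold change in siCtrl against Vehicle was 0.33 (95% interval 0.24 to 0.43, edgeR adjusted p = 1.18e-05). SNHG12 was lower in siCtrl by a log2 fold change of −0.29 (95% interval −0.43 to −0.14, edgeR adjusted p = 0.00531). The siXBP1 libraries of SNHG12 (24.3 ± 0.551 CPM, SD, n = 4) lay within the range of the Vehicle libraries (24.8 ± 1.58 CPM), so among the 4 groups siCtrl was the low one. The knockdown and the control comparison share the siCtrl libraries and are not independent.

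SNHG15, host of SNORA9, was at 65.1, 56.1, 58.7 and 58.9 CPM in siCtrl and at 73.7, 66.5, 69.7 and 62.9 CPM in Vehicle. Its groups overlapped through siCtrl replicate 1 and Vehicle replicate 4, and the log2 fold change was −0.19 (95% interval −0.30 to −0.07, edgeR adjusted p = 0.0208). The call was lost without siCtrl replicate 2 (−0.16, edgeR adjusted p = 0.0769), siCtrl replicate 3 (−0.18, edgeR adjusted p = 0.0564), Vehicle replicate 1 (−0.14, edgeR adjusted p = 0.0986) or Vehicle replicate 3 (−0.17, edgeR adjusted p = 0.0663). In all, 9 of the 10 genes had a value below 0 and the median was −0.10, against −0.01 for all genes. Scaling to total counts alone moved the share of higher among all called genes from 54.7% to 41%. Transfection, solvent, time and experiment cannot be told apart in this comparison.

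In some libraries most host genes lay on the same side of their group mean, and in others they were split. All 10 were above their group mean in siCtrl replicate 1, by a median of 0.07 (log2 CPM), while 8 were below it in siCtrl replicate 2 (median −0.07). In Vehicle replicate 2, 7 were above the mean (median 0.10), and in MKC8866 replicate 2, 8 were (median 0.07). In Vehicle replicate 4 and in MKC8866 replicate 4, 9 of the 10 were below. In siCtrl replicates 3 and 4, siXBP1 replicate 1 and MKC8866 replicate 1, 4 were above and 6 below, and in MKC8866 replicate 3, 5 were above and 5 below. In siXBP1 replicates 2, 3 and 4, 8, 7 and 3 were above, and in Vehicle replicates 1 and 3, 3 were. No test was made of these counts. Over 15037 genes with a mean of at least 1 CPM, the median deviation in the 16 libraries ran from −0.00447 (siXBP1 replicate 2) to 0.00819 (siCtrl replicate 4). The share of these genes above their group mean ran from 47.3% to 54.4% in the same 2 libraries. SNHG1 shows the pattern for replicate 2, with 174, 193, 174 and 174 CPM in Vehicle and 175, 194, 175 and 170 CPM in MKC8866.

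**Figure D4:**
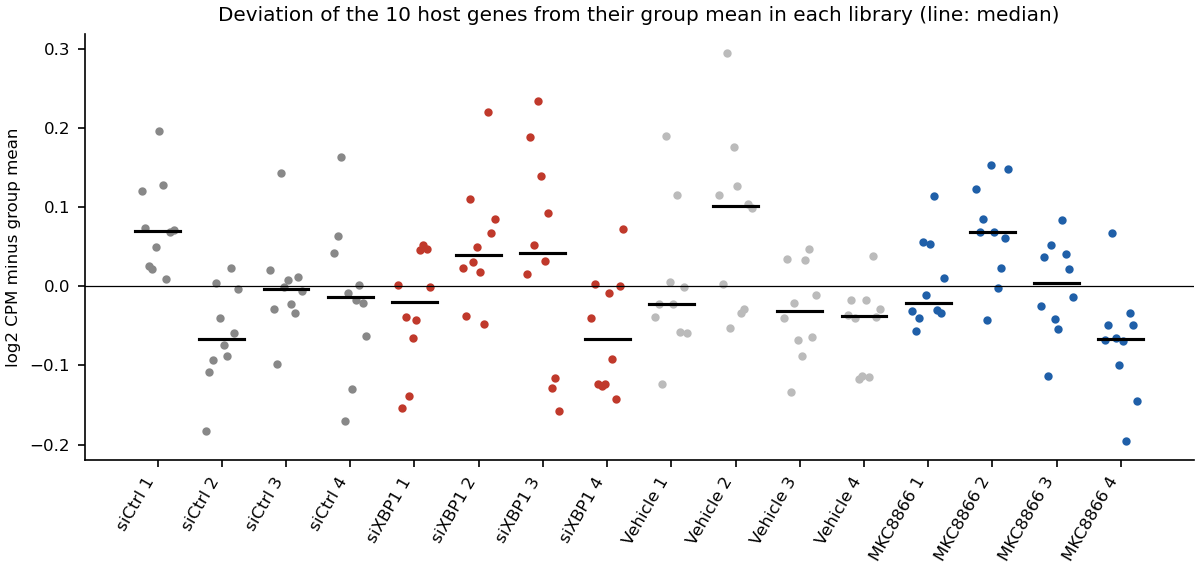
Deviation of each host gene (points) from its group mean in log2 CPM, by library, with the median of the 10 genes as a black line. Replicate 2 is the highest and replicate 4 the lowest library by this median in both Vehicle and MKC8866, and siCtrl replicate 1 has all 10 genes above 0.

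Over the 16 libraries, the 45 pairs of host genes had a median Pearson correlation of 0.262 in log2 CPM, from −0.632 to 0.776, with some pairs opposed. These libraries share groups and replicate numbers, and the values are a description. Among 15027 other genes of at least 1 CPM, those most like the mean standardized profile of the 10 were XRCC6P2 (r = 0.881), HAX1P1 (0.870), SNX5 (0.867), TSEN15 (0.859) and DUT (0.854). Those most like GAS5 were GABBR1 (r = 0.889), PMF1 (0.881), NPIPA5 (0.879), ENSG00000227741 (0.857) and BMERB1 (0.831).

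Other noncoding host genes were compared with the same fits. Of 19 such genes 17 were tested, SNHG18 and MEG8 having too few counts, and after XBP1 knockdown 6 were lower and 4 higher, against 18.2% and 16.5% of all genes. Without siXBP1 replicate 1 the count lower was 3. Their median log2 fold change was −0.06 against 0.00 for all genes, and a difference from the 10 host genes was not tested. The clearest was DANCR, a host of a box H/ACA snoRNA whose long RNA is known for keeping cells undifferentiated. It was at 58.6, 63.2, 64.4 and 59.6 CPM in siCtrl and at 37.7, 39.6, 39.97 and 37.4 CPM in siXBP1. All siXBP1 libraries were far below all siCtrl libraries, with a log2 fold change of −0.67 (SE 0.05, edgeR adjusted p = 2.41e-10). A fall of this size lies outside the 95% interval of each of the 10 genes.

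Of the others, SNHG21 (−0.66), SNHG14 (−0.20), SNHG4 (−0.26), SNHG9 (−0.37) and SNHG19 (−0.26) fell. SNHG29 (0.20), SNHG32 (0.22), SNHG11 (0.31) and SNHG3 (0.12) rose. SNHG29, the most abundant of the list in CPM, went from 418 ± 11.5 CPM in siCtrl to 480 ± 11.7 in siXBP1 (SD, n = 4) without overlap, near the 466 ± 10.8 CPM of Vehicle. The call of SNHG3 (edgeR adjusted p = 0.0458) was lost without siCtrl replicate 2 or 4 or siXBP1 replicate 1, 2 or 4, at 0.10 to 0.13, and in 1 fit of all 16 libraries (0.12). That of SNHG9 was lost without siCtrl replicate 1 (−0.30) or siXBP1 replicate 1 (−0.31) or 4 (−0.27). SNHG21 had 44 to 108 counts per library and shares 72.9% of its exon bases with another row.

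With MKC8866, 1 of 16 tested was lower, SNHG21, and 0 were higher, against 3.11% and 1.36% of all genes. DESeq2 called 2 lower and 0 higher, and 3 had an unadjusted p under 0.05. SNHG21 was at 3.66, 3.14, 2.49 and 3.06 CPM in Vehicle and at 1.70, 2.21, 2.14 and 1.71 CPM in MKC8866. The groups did not overlap (log2 fold change −0.67, SE 0.15, edgeR adjusted p = 0.00559). In the blocked fit 3 were lower, against 7.05% of all genes, the others being DANCR (−0.18, edgeR adjusted p = 0.000162 with the block and 0.0616 without) and SNHG14 (−0.08, edgeR adjusted p = 0.0211 with the block and 0.296 without). In the interaction 4 of 16 tested were called, DANCR (−0.49), SNHG4 (−0.40), SNHG29 (0.26) and SNHG32 (0.28), a share near the 23.3% of all genes.

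**Figure D5:**
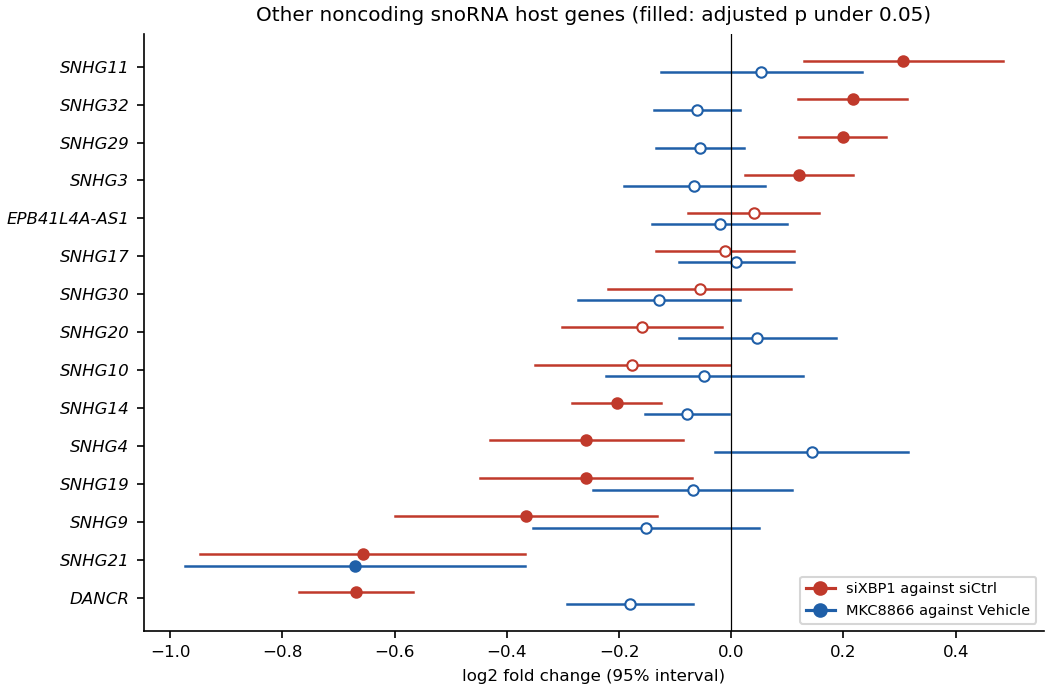
Log2 fold change with 95% interval of the 15 other noncoding snoRNA host genes with at least 1 CPM in every siCtrl library, for siXBP1 against siCtrl and MKC8866 against Vehicle; filled points have an adjusted p under 0.05. DANCR and SNHG21 lie near −0.67 after knockdown, and only SNHG21 is filled with MKC8866 in the fit without a block.

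Ribosomal protein and translation factor genes that host snoRNAs share the pyrimidine tract but encode proteins. Of 28 tested after knockdown, 3 rose (RPS2 by 0.20, RPL13A by 0.15 and RPL5 by 0.14 on the log2 scale) and RPL10 fell by 0.19. These are 3 higher and 1 lower of 28, against 16.5% and 18.2% of all genes. Their median log2 fold change was 0.01. With MKC8866, 26 of the 28 were below 0 and the median was −0.07, against 0.00 for all genes, and 2 were called lower, RPL10 (−0.21) and EIF4A1 (−0.58), against 3.11% of all genes. Without MKC8866 replicate 2 the count was 6, and without Vehicle replicate 1 or MKC8866 replicate 4 it was 1. RPL10 was not called without Vehicle replicate 1 (−0.20) or 3 (−0.17) or MKC8866 replicate 4 (−0.16).

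In the blocked fit, 15 of the 28 were lower with MKC8866, where 7.05% of all genes were, and 0 were higher, where 6% were. RPL10, which had the smallest adjusted p of this list in the blocked fit, was at 149 ± 10.9 CPM in Vehicle and 129 ± 11.1 CPM in MKC8866 (SD, n = 4), and its edgeR adjusted p was 4.1e-08 in the blocked fit and 0.0316 without a block. The 10 noncoding hosts had a median of −0.03 in the same fits and 0 calls. RPL10 shares 55.5% and EIF4A1 48.6% of their exon bases with other rows, and EIF4A1 was counted at only 6.51 CPM in Vehicle.

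Of 14 other protein-coding host genes, 4 rose and 4 fell after knockdown, against 16.5% and 18.2% of all genes. RNF149, a ubiquitin ligase gene that hosts SNORD89, rose most, from 17.6 ± 0.633 to 25.1 ± 3.11 CPM (SD, n = 4; log2 fold change 0.51, edgeR adjusted p = 9.66e-06). Its Vehicle level was 26.2 ± 2.05 CPM, so here too siCtrl was the low group. CCAR1 (0.15), HSPA8 and HSPA9 (0.13 each) also rose. NOP56 (−0.13), TNPO2 (−0.14), TAF1D (−0.15) and WDR43 (−0.12) fell, and when libraries were scaled to total counts alone 0 of the 14 were called lower. With MKC8866 0 were called by edgeR without a block and 0 by DESeq2, while 4 had an unadjusted p under 0.05. In the blocked fit PRRC2A (0.12), HSPA8 (0.09), CHD8 (0.10) and WDR43 (0.09) were higher, 4 of 14 against 6% of all genes. The falls after knockdown were each lost without some libraries, that of WDR43 without siCtrl replicate 1, 2 or 4 or siXBP1 replicate 2 or 4 (−0.11 to −0.09) and that of NOP56 without siCtrl replicate 3 or siXBP1 replicate 1, 2 or 4 (−0.12 to −0.11). That of TNPO2 was lost without siCtrl replicate 2 or siXBP1 replicate 2 or 3 (−0.14 to −0.09), and that of TAF1D without siCtrl replicate 1 or siXBP1 replicate 2 or 4 (−0.15 to −0.08). HSPA9 was not called without siXBP1 replicate 3 (0.11).

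The proteins that assemble on snoRNAs were also examined. Of 18 genes for snoRNP proteins and assembly factors, 7 were lower and 0 higher after knockdown by edgeR, against 18.2% and 16.5% of all genes. DESeq2 also called 7 lower and 0 higher, and 8 had an unadjusted p under 0.05. Without siXBP1 replicate 1 the count lower was 4. The median log2 fold change was −0.09 against 0.00 for all genes. In order of adjusted p the 7 were NAF1, an assembly factor of the box H/ACA particle (−0.35), SNU13 (−0.22), NOLC1 (−0.16), NOP58 (−0.18), ZNHIT6 (−0.21), NOP56 (−0.13) and RPAP3 (−0.13), of which SNU13, NOP58 and NOP56 are core proteins of the box C/D particle. NOLC1, the most abundant of the list, went from 519 ± 9.5 CPM in siCtrl to 464 ± 11.6 in siXBP1 (SD, n = 4; edgeR adjusted p = 0.00131) and was called without each library in turn. The other core protein of the box C/D particle, the methyltransferase fibrillarin (FBL), was at −0.06 and was not called. With MKC8866, 3 of 18 were lower, against 3.11% of all genes. SNU13 (−0.15), PIH1D1 (−0.16) and ZNHIT3 (−0.21) were called, each with an edgeR adjusted p between 0.0451 and 0.0487, and 0 of the 3 were called when libraries were scaled to total counts alone. Leaving out 1 library at a time ended the call of SNU13 in 5 of 8 fits (all but Vehicle replicate 2 and MKC8866 replicates 2 and 3), that of PIH1D1 in 6 (all but Vehicle replicate 2 and MKC8866 replicate 4) and that of ZNHIT3 in 7 (all but MKC8866 replicate 2), with highest edgeR adjusted p of 0.141, 0.158 and 0.153. In the blocked fit, 5 of 18 were lower and 2 (NUFIP1 and RUVBL1) higher, against 7.05% and 6% of all genes.

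Nonsense-mediated decay removes the spliced host RNAs after translation. Genes for its factors and for the exon junction complex changed in both directions after knockdown. SMG1, the kinase that phosphorylates UPF1, went from 172 ± 16.0 to 140 ± 5.72 CPM (SD, n = 4; log2 fold change −0.30, edgeR adjusted p = 0.000109). SMG8 (−0.32) and CASC3 (−0.28) were lower to a like degree, and EIF4A3 (0.24) and SMG9 (0.15) were higher. UPF1 itself had a log2 fold change of 0.10 and was not called (edgeR adjusted p = 0.0707).

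SMG8 (−0.30), CASC3 (−0.30), SMG1 (−0.21) and EIF4A3 (0.33) differed between the 2 responses in the interaction test. The interaction of SMG1 (edgeR adjusted p = 0.0383) was lost without siCtrl replicate 2 or 4, siXBP1 replicate 2, 3 or 4, Vehicle replicate 3 or 4 or MKC8866 replicate 2 or 4, at −0.21 to −0.16. The call of SMG9 after knockdown was lost without siCtrl replicate 1 or 3 or siXBP1 replicate 1 or 4, at 0.12 to 0.15, and with all 16 libraries in 1 fit.

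Genes for SR splicing proteins carry poison exons whose inclusion sends the mRNA to the same decay. The counts do not separate the isoforms. Of 10 such genes, SRSF1 (−0.20), TRA2B (−0.25) and SRSF7 (−0.13) fell and SRSF3 (0.15) and TRA2A (0.17) rose after knockdown, 5 called of 10 against 34.8% of all genes. Without siCtrl replicate 1, 4 were higher. SRSF7 was not called without siCtrl replicate 2 or 4 or siXBP1 replicate 1 or 3 (−0.11 to −0.09) or when scaled to total counts alone (−0.09). With MKC8866 all 10 were below 0, with a median of −0.09 against 0.00 for all genes. SRSF1 (−0.23) and TRA2B (−0.20) were called, 2 of 10 against 3.11% of all genes called lower. In the blocked fit 5 were, against 7.05%, SRSF5 (−0.13), SRSF6 (−0.09) and SRSF11 (−0.09) in addition.

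Of 9 genes of the eIF2α kinase pathway, which lowers translation initiation under ER stress, 2 were lower and 3 higher after knockdown, against 18.2% and 16.5% of all genes. EIF2AK3, the gene for PERK, was lower in both comparisons. Its level was 81.8 ± 3.12 CPM in siCtrl against 48.4 ± 3.03 in siXBP1, and 85.02 ± 1.18 CPM in Vehicle against 50.4 ± 0.771 in MKC8866 (SD, n = 4). The log2 fold changes were −0.76 and −0.75 (edgeR adjusted p = 4.97e-11 and 6.94e-12), and the test of their difference gave an edgeR adjusted p of 0.979. After knockdown DDIT3 (0.46), SESN2 (0.34) and TRIB3 (0.10) rose and ATF3 (−0.42) fell, TRIB3 losing its call without siCtrl replicate 1 or siXBP1 replicate 3 (0.09 each). With MKC8866 ATF4 fell by 0.17 on the log2 scale, so that 2 of 9 were lower against 3.11% of all genes. In the blocked fit DDIT3 (−0.08) was also lower and ATF3 (0.10) and SESN2 (0.14) higher, 3 and 2 of 9 against 7.05% and 6% of all genes. In the interaction 2 of 9 were higher and 1 lower, where 23.3% of all genes were called. These were DDIT3 (0.55, edgeR adjusted p = 1.24e-08), SESN2 (0.20, edgeR adjusted p = 0.0297) and ATF3 (−0.52, edgeR adjusted p = 6.36e-08). The interaction of SESN2 was lost in 7 of the 16 fits without 1 library. The abundance of these mRNAs does not measure translation, which was not assayed.

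Of 20 genes nearest to the hosts on either side, 14 were tested after knockdown, and 3 were lower and 3 higher, against 18.2% and 16.5% of all genes. SLC3A2, an amino acid transporter gene 188 bp from SNHG1, rose after knockdown (0.17, edgeR adjusted p = 0.00139) while SNHG1 was at 0.02, and WDR74 on its other side fell (−0.12, edgeR adjusted p = 0.0408). TAF12, 6340 bp from SNHG12, and TRNAU1AP, which overlaps SNHG12, fell (−0.33 and −0.17, edgeR adjusted p = 7.81e-05 and 0.0357) while SNHG12 rose. ZBTB37, which starts within the span of GAS5 on the other strand, also fell (−0.30, edgeR adjusted p = 0.00143) while GAS5 rose. CCM2 next to SNHG15 fell (−0.30), and AGPAT2 next to SNHG7 and SGK3 next to SNHG6 rose (0.44 and 0.35). The overlapping gene MCMDC2 fell (−0.36, edgeR adjusted p = 0.000897) while SNHG6 was at −0.03. With MKC8866 the smallest edgeR adjusted p among the neighbours and overlapping genes was that of ZBTB37 (0.196). The calls of these genes were not tested by leaving out libraries.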

How the data were processed

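RNA-seq of 16 LNCaP libraries was used. The deposited values are raw fragment counts per gene, which the authors made with STAR 2.5.2a on hg38 and, per the file headers, featureCounts 1.5.0-p3 with Ensembl annotation 85 and no strand option. Total counts were 28713607 to 34509488 per library (median 30743136). A gene was tested if every group compared had a library with over 5 counts of it, using edgeR 4.0.16 (quasi-likelihood, TMM normalization, limma 3.58.1, R 4.3.3), with DESeq2 1.42.0 as an alternative, and p-values were adjusted over all genes tested. The code was tested on simulated data. Members and gene lists were chosen with earlier results of these data known.

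Named genes were the 10 host genes, the label check, the markers, neighbours and overlapping rows, the 5 genes most like each of 2 profiles (Pearson r of log2 CPM, pseudocount 0.5), the most abundant gene of each list, and up to 4 genes per list, direction and comparison with the smallest adjusted p. Others, including those called only in the blocked fit, FBL and UPF1, were named after their values were seen.

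Over 15037 genes, deviations of MKC8866 and Vehicle libraries with the same number correlated at r of 0.102 to 0.379. Pairs of these libraries with different numbers had r of −0.252 to 0.159, and so overlapped this range. The fit with the number as a block is therefore also given. For siXBP1 and siCtrl, pairs with the same number had r of 0.0011 to 0.068. The other alternatives were RLE size factors, other count filters, 1 fit of all libraries, leaving out each library and, chosen after seeing the data, scaling to total counts alone.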

Additional observations from a re-analysis of the deposited data

Results flagged for a closer look

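SNHG1 in Vehicle replicate 2, at 193.3 CPM, stood apart from the 3 other Vehicle libraries, the gap to the nearest being 0.975 of the range of the group, above the critical value of Dixon's test for 4 libraries. It was the 1 such case in 68 groups of 4 libraries examined (1.47%), where chance gives about 1 in 20 groups.

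The response to XBP1 knockdown differed from that to MKC8866, by the interaction test over 16 libraries, for 1 of the 10 host genes and for 4 of 16 other noncoding hosts, where 23.3% of 20357 genes were called. The log2 difference was 0.2449 for SNHG12 (edgeR adjusted p = 0.0481), a call lost on dropping any 1 of 12 of the 16 libraries. It was −0.3989 for SNHG4 (edgeR adjusted p = 0.0143) and −0.487 for DANCR (edgeR adjusted p = 9.09e-06). For SNHG29 it was 0.2569 (edgeR adjusted p = 0.000404) and for SNHG32 0.2792 (edgeR adjusted p = 0.000657). The part of transfection, solvent and time in these differences cannot be told apart from that of the inhibition.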

How the results depend on the processing

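Of the 10 host genes' log2 fold changes in 4 comparisons, 267 of the values under other settings and 377 of those without 1 library kept their side of the threshold. Without 1 library 17 calls were lost and 6 gained, and under other settings 1 was lost and 2 gained. The sign changed in 59 values that were not called. None of the calls turned direction.

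With MKC8866, fitting replicate numbers as a block gave 1484 genes lower and 1262 higher, against 654 and 287 without it. Leaving out 1 library gave 180 to 484 genes higher. In the interaction, 0 host genes were called without a filter on low counts, 2 with the block, and 0 to 2 without 1 library. The cause was not tested. After knockdown 2 to 3 host genes were called without 1 library, with MKC8866 0 to 0, and between the controls 2 to 3. Dividing by exon length moved 34 of 40 ranks of level. SNHG21 had 44 to 108 counts per library, and SNHG18 and MEG8 had too few to be tested.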
